A study of Mus musculus with 51 samples.

Results

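Gene expression in the CA1 pyramidal layer was compared between rTg4510 mice, a model of tau pathology, and their tTA littermates. The rTg4510 group was taken as every array whose title names Tg4510 and CA1, and the tTA group as every array whose title names TTA alone and CA1, which gave 6 and 5 arrays, 11 of the 51 in the series, with 1 array per mouse. Both genotypes carry the tetracycline-controlled transactivator (tTA) under the CaMKIIα promoter, which acts in forebrain excitatory neurons, and only the rTg4510 mice also carry human tau with the P301L mutation under the tetracycline response element. The mice came from a cross of FVB/N mice with the tau transgene and tTA mice of another inbred strain, were labelled female, and were 4.5 months old. A further 6 CA1 arrays from DN mice, littermates with neither transgene, entered the model fit and are given as background. The layer was captured by laser from cresyl violet stained sections, and the RNA was amplified and hybridized to Affymetrix HT-MG-430A arrays, whose log2 signals after RMA normalization were analysed. The transgenes act in neurons of a single line with fixed insertion sites, and capture of a layer also takes up the glia and vessels that lie among the cell bodies. A lower level in such tissue can mean fewer cells of a type or less RNA per cell, and these cannot be told apart here.

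Tau binds microtubules in axons. In tauopathies it becomes hyperphosphorylated and aggregates into neurofibrillary tangles, to which CA1 pyramidal neurons are prone. Astrocytes respond to such damage with raised Gfap, microglia with raised lysosomal and complement genes, and oligodendrocytes make the myelin around the axons.

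The captured tissue was checked first. Each array was given a marker score per list, the average of its genes after each gene was centred on the 51 arrays. CA1 markers scored above CA3 and dentate granule markers in 13 of the 17 CA1 arrays. In the other 4, from rTg4510 mice 1 and 6, tTA mouse 1 and DN mouse 2, CA3 markers scored higher, and these values bear on every gene that differs between CA1 and CA3. Results were therefore also computed without these 4 arrays, an alternative chosen after the data were seen. Of the 4, the array of rTg4510 mouse 6 scored −0.43 for CA1 and 0.76 for CA3 markers, both within the ranges of the CA3 arrays. The array of tTA mouse 4, which was kept, was nearly tied, at 0.14 for CA1 and 0.03 for CA3 markers. Xist, the RNA that silences an X chromosome in female cells, lay between 7.85 and 9.36 at its brightest probe set in the 11 arrays. In the DN arrays it reached down to 2.49, in the array labelled DN mouse 5, which goes against the female label. The 3′ to 5′ difference of Gapdh, a measure of RNA integrity, averaged 2.39 ± 0.21 (SD, n = 6) in rTg4510 and 2.14 ± 0.32 (SD, n = 5) in tTA arrays. None of 5 array measures differed between the genotypes, with adjusted p from 0.503 to 0.591 (two-sided exact permutation tests over 462 splits of the mice). Of the 11 arrays, that of tTA mouse 4 had the lowest Gapdh difference (1.62) and the lowest correlation with the mean of the other CA1 arrays (0.929 over all probe sets).

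The transgene carrier was examined through Prnp, the prion protein gene, since the tau transgene of this line was built in a vector derived from Prnp. At the dimmer of its 2 probe sets the rTg4510 arrays had log2 signals from 9.96 to 10.55, with a median of 10.13. The tTA arrays of mice 1 to 5 had 7.94, 8.07, 8.33, 7.26 and 8.46. Every rTg4510 array thus lay above every tTA array, with a difference of 2.20 (standard error 0.45, limma adjusted p = 0.678). At the brighter probe set of Prnp the rTg4510 arrays lay between 10.52 and 10.77, with a median of 10.68. The tTA arrays were at 9.36, 9.42, 9.61, 9.24 and 9.54, again with no overlap. The difference was 1.24 (standard error 0.20, limma adjusted p = 0.130). Prnp thus followed the genotype label in all 11 arrays. At the dimmer probe set the same contrast in CA3 was 1.97 (standard error 0.27, limma adjusted p = 0.0387), which passed the threshold. In the dentate gyrus it was 1.51 (standard error 0.54, limma adjusted p = 0.789). The higher level of Prnp was thus not particular to CA1. The array labelled DN mouse 4 was at 10.44 and 10.88 at the 2 probe sets, within or above the rTg4510 range and against its label, and this array enters the estimate of spread in the fit of 3 genotypes.

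**Figure D1:**
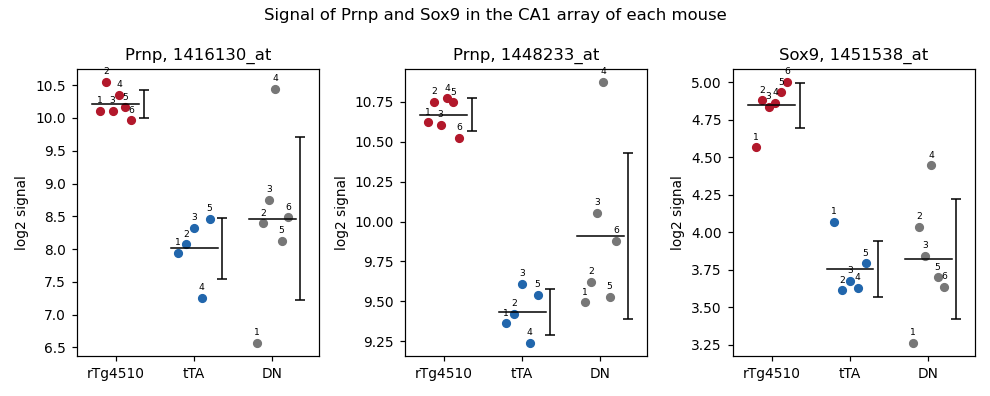
Log2 signal of 2 probe sets of Prnp and of Sox9 in each CA1 array, by genotype, with the mouse number beside each point, the mean as a line and the SD as a bar. All 6 rTg4510 arrays lie above all 5 tTA arrays in each panel, and DN mouse 4 lies with the rTg4510 arrays for Prnp.

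Over the whole array, no probe set passed the threshold. Of 22626 probe sets tested, 0 had a limma adjusted p under 0.05 in the fit of the 3 genotypes (0% called). At an unadjusted p under 0.05, 470 probe sets were higher (2.08%) and 428 were lower (1.89%) in rTg4510 mice, and 46.8% of all probe sets had a difference above 0. In a fit of only the 2 genotypes, limma called 3 probe sets (0.0133%), all higher in rTg4510 mice. These were both probe sets of Prnp (adjusted p = 0.00367 each) and Sox9 (adjusted p = 0.0215). Without the array labelled DN mouse 4, the fit of 3 genotypes called 3 probe sets, the same 2 of Prnp (adjusted p = 0.000896 and 0.0364) and Sox9 (adjusted p = 0.0142). That array was singled out after its Prnp values were seen, and it was also the highest DN array for Sox9. Its removal therefore favours calls of these probe sets, and the calls are a description only. Both probe sets of Prnp were also called in the fit of 2 genotypes when any 1 of the 11 mice was left out. Sox9 was then called only without rTg4510 mouse 1 (adjusted p = 0.0192) or tTA mouse 1 (adjusted p = 0.0118), and missed the threshold without any of the other 9 mice (adjusted p from 0.0765 to 0.123). Without the 4 arrays with CA3 markers above CA1 markers, limma called 0 probe sets, with a smallest adjusted p of 0.669, and 436 were higher and 295 lower at an unadjusted p under 0.05.

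**Figure D2:**
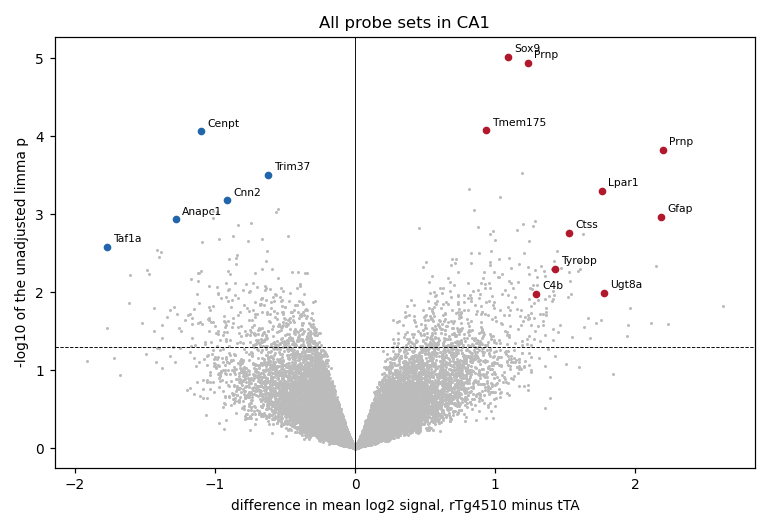
Each probe set of CA1 by its difference in mean log2 signal between rTg4510 and tTA mice (horizontal axis) and the −log10 of its unadjusted limma p in the fit of 3 genotypes (vertical axis), with the dashed line at an unadjusted p of 0.05. Sox9 and a probe set of Prnp have the smallest p values and Cenpt the smallest among the lower probe sets, while none passes after adjustment.

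Sox9, a transcription factor of astrocytes in the adult brain, had the smallest p. Its rTg4510 arrays lay between 4.57 and 5.00, with a median of 4.87. Its tTA arrays were at 4.07, 3.61, 3.67, 3.63 and 3.79. The groups did not overlap, and the difference was 1.09 (standard error 0.17, limma adjusted p = 0.130). A second, dimmer probe set of Sox9 differed by −0.01 (standard error 0.22). The DN arrays of Sox9 ranged from 3.26 to 4.45, the highest being the array labelled DN mouse 4. In the same contrast in the other subfields, Sox9 differed by 0.14 (standard error 0.34) in CA3 and by 0.22 (standard error 0.37) in the dentate gyrus. The test of CA1 minus CA3 gave 0.96 (standard error 0.30, limma adjusted p = 0.9998), and that of CA1 minus the dentate gyrus 0.87 (standard error 0.35, limma adjusted p = 0.990).

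The other probe sets with the smallest p were spread over many roles. Since they were picked by their p, their values are a description. Tmem175, a lysosomal potassium channel, lay between 3.22 and 3.77 in rTg4510 arrays. It was at 2.74, 3.11, 2.74, 2.23 and 2.19 in the tTA arrays, so that the groups did not overlap. Its difference was 0.93 (standard error 0.18, limma adjusted p = 0.492). Among probe sets that were lower in rTg4510 mice, Cenpt, a kinetochore protein, lay between 2.13 and 2.90 against 4.20, 3.21, 3.29, 3.34 and 3.92, a difference of −1.10 (standard error 0.21, limma adjusted p = 0.492). Both genes had signals near the median of all probe sets in CA1, which was 3.07. Brighter was Trim37, a ubiquitin ligase, which lay between 9.03 and 9.75 in rTg4510 arrays and was at 10.27, 9.92, 10.20, 9.98 and 9.93 in tTA arrays. Its difference was −0.62 (standard error 0.14, limma adjusted p = 0.999), and its other 3 probe sets were lower too, by −0.83, −0.19 and −0.77.

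Over all probe sets, 38 (0.168%) were higher and 55 (0.243%) lower without overlap between the groups, and picking by p favours such probe sets. Of the other higher probe sets, those without overlap between the groups were Cs (1.19, citrate synthase), Pex5 (0.81, the receptor for import into peroxisomes), Jmjd6 (1.03, a lysyl hydroxylase), Rgs4 (0.85, a regulator of G protein signalling), Clasp2 (0.88, a microtubule plus-end protein) and Prkcq (0.45, a protein kinase C). The brightest probe set of Cs differed by −0.07 and that of Clasp2 by 0.13, while all 3 of Rgs4 were higher. At its probe set without overlap, Rgs4 averaged 6.90 in rTg4510, 6.05 in tTA and 6.93 in DN arrays. The rTg4510 level of Rgs4 was thus near that of the DN mice. Overlap remained for Lpar1 (1.76, a lysophosphatidic acid receptor of oligodendrocytes), Utrn (1.28, utrophin), Dnajc5 (1.20, a synaptic vesicle chaperone) and Gnai3 (1.15, a G protein subunit). Another probe set of the gene had the opposite sign for Jmjd6, Pex5, Utrn, Gnai3 and Dnajc5. Of the lower ones, Ppie (−0.55, a splicing cyclophilin), Ccnc (−1.01, cyclin C), Six4 (−0.56, a homeobox factor) and Dhx32 (−1.01, a helicase) had no overlap, and another probe set of Ccnc had the opposite sign. The rTg4510 and tTA means of Prkcq (2.25 and 1.80) and Six4 (1.44 and 2.01) lay under the median of all probe sets. The brightest probe set of Six4 differed by −0.19. Cnn2, Anapc1, Mrpl55, Chrac1, Gli2, Med10, Chd1l and Taf1a, at −0.66 to −1.77, overlapped. The probe set of Tardbp (TDP-43) among them differed by −0.83, while the brightest probe set of that gene differed by 0.06. Each of these had a limma adjusted p of 0.999.

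The other genes that the transgenes carry or interrupt did not pass the test. Mapt, the mouse tau gene, lay between 5.12 and 7.61 in rTg4510 arrays, and was at 6.44, 3.74, 5.85, 6.19 and 5.84 in tTA arrays. The groups overlapped, with a difference of 0.61 (standard error 0.58, limma adjusted p = 0.999), and 0.15 without tTA mouse 2, the lowest array. Its 2 other probe sets differed by 0.08 and 0.44. Whether these mouse probe sets also detect the human tau RNA of the transgene was not tested, so they do not measure its level. Camk2a, whose promoter drives tTA in both genotypes, differed by −0.01 (standard error 0.12). Fgf14, a regulator of sodium channels at which the tau transgene is inserted, lay between 6.71 and 7.81 in rTg4510 arrays. It was at 7.55, 7.55, 7.99, 7.52 and 7.77 in tTA arrays, and 4 of 6 rTg4510 arrays lay below all of these. The difference was −0.43 (standard error 0.30, limma adjusted p = 0.999). Vipr2, Ncapg2 and Ptprn2, at the insertion site of tTA, which both genotypes carry, differed by −0.17, 0.22 and −0.03.

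Astrocyte genes were mostly higher in rTg4510 mice, but none passed the test. Of 19 astrocyte markers measured, 17 were higher, with a median difference of 0.34. Over all 11962 genes measured, by the brightest probe set of each, 46.6% were higher and the median difference was −0.02. At an unadjusted p under 0.05, 4 astrocyte markers were higher and none lower, against 2.2% and 1.84% of all genes. Gfap, the intermediate filament raised in reactive astrocytes, had the largest difference. It lay between 5.07 and 8.65 in rTg4510 arrays, with a median of 6.28, and was at 4.15, 4.62, 5.21, 3.71 and 4.71 in tTA arrays. Thus 5 of 6 rTg4510 arrays lay above every tTA array, and that of mouse 6 did not. The difference was 2.18 (standard error 0.55, unadjusted p = 0.00109, limma adjusted p = 0.999), and 1.79 without rTg4510 mouse 4. Without the 4 arrays with CA3 markers above CA1 markers it was 2.60 (standard error 0.63), with no overlap. A second probe set of Gfap differed by 2.23. In CA3 Gfap differed by 1.02 (standard error 0.65) and in the dentate gyrus by 0.15 (standard error 0.71). The tests of CA1 minus CA3 (1.16, standard error 0.60) and of CA1 minus the dentate gyrus (2.04, standard error 0.74) had limma adjusted p of 0.9998 and 0.990. Aqp4, the water channel of astrocyte end feet, lay between 5.13 and 7.87 against 4.99, 6.39, 6.24, 6.55 and 5.44, a difference of 0.57 (standard error 0.42), which was 0.29 without rTg4510 mouse 4. The list's median was 0.10 without rTg4510 mouse 4, and 10 of 19 markers were then higher. In CA3 16 of the 19 markers were higher, with a median of 0.15. In the dentate gyrus 17 of 19 were higher, with a median of 0.22, so the direction was not particular to CA1.

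Genes known to be raised in reactive astrocytes lay closer to the background. Of 19 measured, 11 were higher, with a median of 0.15. At an unadjusted p under 0.05, Gfap was the only one higher (5.26% of the list), and Steap4 and Emp1 were lower. All genes gave 2.2% higher and 1.84% lower. Vim, another intermediate filament, differed by 0.69 (standard error 0.85), and by 0.11 without rTg4510 mouse 4. Steap4, a metalloreductase, differed by −0.53 (standard error 0.19), with values in both groups under the median signal of the array. The list's median was 0.05 without tTA mouse 2, 0.52 over the 6 members above the 40th percentile of signal, and 0.00 without the 4 arrays with CA3 markers above CA1 markers.

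**Figure D3:**
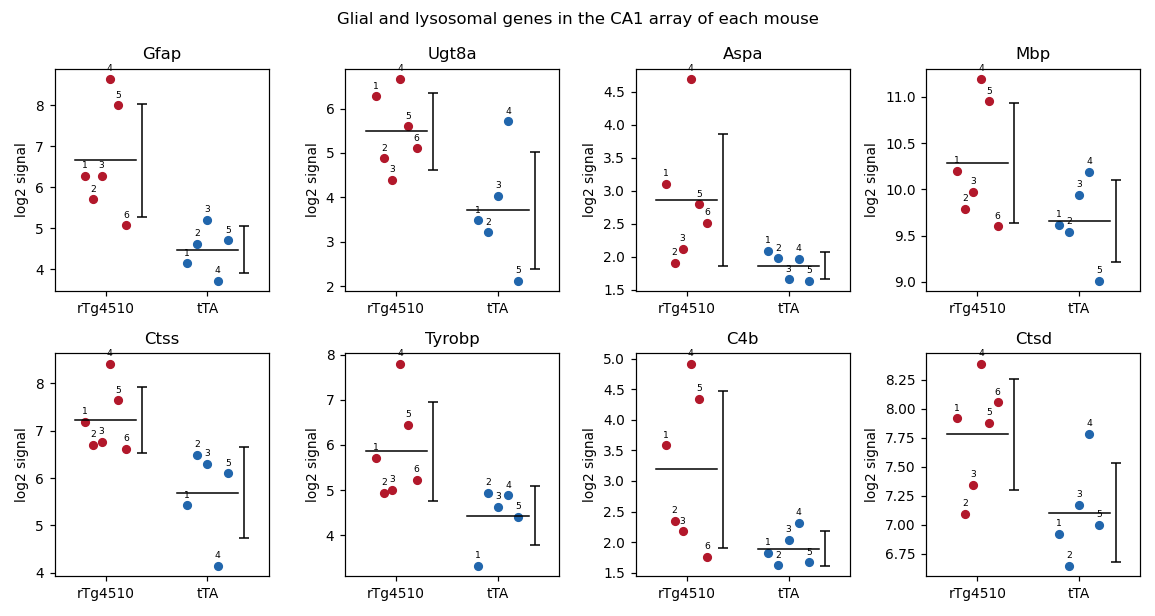
Log2 signal of 8 glial and lysosomal genes in each CA1 array of rTg4510 (red) and tTA (blue) mice, with the mouse number beside each point, the mean as a line and the SD as a bar. rTg4510 mouse 4 is the highest rTg4510 array in every panel, and the groups do not overlap for Ctss alone.

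Myelin genes had the largest median difference of the lists. Of 20 measured, 19 were higher in rTg4510 mice, with a median of 0.73. Of the 20, 6 (30%) were higher and none lower at an unadjusted p under 0.05, against 2.2% and 1.84% of all genes. No member had groups that did not overlap, against 0.201% of all genes without overlap and higher. Ugt8a, which makes the galactolipid of myelin, lay between 4.39 and 6.68 in rTg4510 arrays, with a median of 5.35. It was at 3.48, 3.21, 4.04, 5.71 and 2.11 in tTA arrays, so that tTA mouse 4 lay inside the rTg4510 range. The difference was 1.78 (standard error 0.61, limma adjusted p = 0.999). Mbp, myelin basic protein, lay between 9.60 and 11.20 against 9.62, 9.54, 9.94, 10.19 and 9.01, a difference of 0.63 (standard error 0.36). Aspa, which degrades N-acetylaspartate in oligodendrocytes, differed by 0.99 (standard error 0.37), and by 0.62 without rTg4510 mouse 4. The list's median was 0.51 without rTg4510 mouse 4 and 0.93 without tTA mouse 4, and 1.03 without the 4 arrays with CA3 markers above CA1 markers. In CA3 the median over the same genes was 0.61 and in the dentate gyrus 0.76, and at an unadjusted p under 0.05 none of the 20 differed between CA1 and either subfield. In the promoters of myelin genes the motif ACAAAG, to which SOX factors bind, was searched on both strands (CTTTGT on the other) in the 250 bases before each annotated start (RefSeq, GRCm38.p6). Of 12 of the 20 genes with a window, 5 held it, or 41.7%, against 18.6% of all 27025 genes with one, 25% of 24 microglial genes and 6.67% of 15 astrocyte markers. A gene counted if any of its windows held the motif. By window, the shares were 35% of 20 for myelin, 16.5% of 32851 for all genes, 24.1% for microglial genes and 5% for astrocyte markers. The windows of Cnp (difference 0.88) and Mobp (difference 0.95), chosen after their values were seen as the genes with 1 and with 6 matches, are shown with the motif in capitals. That of Cnp lies at chr11:100574689-100574938 and that of Mobp at chr9:120149492-120149741, both on the plus strand.
Cnp: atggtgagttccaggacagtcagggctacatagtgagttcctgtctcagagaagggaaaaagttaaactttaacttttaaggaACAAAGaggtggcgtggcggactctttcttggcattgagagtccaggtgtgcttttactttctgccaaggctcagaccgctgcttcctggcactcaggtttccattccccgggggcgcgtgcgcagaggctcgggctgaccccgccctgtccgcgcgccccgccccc
Mobp: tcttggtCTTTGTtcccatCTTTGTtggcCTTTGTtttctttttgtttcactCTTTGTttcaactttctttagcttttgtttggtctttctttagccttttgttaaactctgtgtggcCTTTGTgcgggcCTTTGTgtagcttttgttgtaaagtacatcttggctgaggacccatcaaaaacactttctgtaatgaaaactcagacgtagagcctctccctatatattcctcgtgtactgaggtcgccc

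Microglial genes were also mostly higher in rTg4510 mice, and none passed the test. Of 35 measured, 27 were higher, with a median of 0.34. Of the 35, 8 (22.9%) were higher and none lower at an unadjusted p under 0.05, against 2.2% and 1.84% of all genes. Ctss, a lysosomal protease of microglia, lay between 6.61 and 8.42 in rTg4510 arrays, with a median of 6.98. It was at 5.43, 6.50, 6.30, 4.14 and 6.10 in tTA arrays, and the groups did not overlap. The difference was 1.53 (standard error 0.41, limma adjusted p = 0.999), and it was 1.14 without tTA mouse 4. Tyrobp, the adaptor of microglial receptors, lay between 4.93 and 7.81 against 3.31, 4.94, 4.63, 4.88 and 4.40. The difference was 1.43 (standard error 0.44, limma adjusted p = 0.999), with 5 of 6 rTg4510 arrays above every tTA array. Cx3cr1, the fractalkine receptor, differed by 0.68 (standard error 0.32) and Csf1r, the receptor that microglia need to survive, by 0.06 (standard error 0.71). A dimmer probe set of Cx3cr1 differed by −0.004, and dimmer ones of Csf1r by 0.36 and 0.41. Trem2, the receptor that signals through Tyrobp, differed by −0.26 (standard error 0.19) and Cd68, a lysosomal protein of phagocytes, by 0.34 (standard error 0.62), both with group means under the median of all probe sets. Cd68 was at 5.01 in rTg4510 mouse 4, and differed by −0.14 without that mouse. Itgax, Itgb2 and Cd14 differed by 0.15, 0.06 and −0.05, and Spp1, osteopontin, by 0.39 (standard error 0.15). The group means of each of these genes were also under that median, with Spp1 at 1.53 in rTg4510 and 1.15 in tTA arrays. The list's median was 0.12 without rTg4510 mouse 1 and 0.14 without rTg4510 mouse 4. In CA3 it was 0.10 and in the dentate gyrus −0.01.

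Complement genes had a median near that of all genes. Of 18 measured, 11 were higher, with a median of 0.08, and 0.52 over the 7 members above the 40th percentile of signal. Of the 18, 4 (22.2%) were higher and none lower at an unadjusted p under 0.05, against 2.2% and 1.84% of all genes. C4b, the component cleaved early in the classical pathway, lay between 1.76 and 4.92 in rTg4510 arrays, with a median of 2.97. It was at 1.83, 1.62, 2.04, 2.31 and 1.67 in tTA arrays, and 4 of 6 rTg4510 arrays lay above all of them. The difference was 1.29 (standard error 0.45, limma adjusted p = 0.999). The subunits of C1q, which starts that pathway, differed by 0.90 (C1qa, standard error 0.42), 0.86 (C1qb, standard error 1.08) and 1.46 (C1qc, standard error 0.60). Without rTg4510 mouse 4, C1qb differed by 0.18 and C1qc by 0.87, and without rTg4510 mouse 5 C1qa differed by 0.59. C3, the component on which the pathways converge, differed by −0.08 (standard error 0.20), and C3ar1, the receptor of its C3a fragment, by 0.76 (standard error 0.35). In the dentate gyrus C1qa, C1qb and C1qc differed by −0.59, −1.54 and −0.41, and the tests of CA1 minus the dentate gyrus had limma adjusted p of 0.990.

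Lysosomal genes were mostly higher in rTg4510 mice, with the least overlap of the lists between the genotypes. Of 45 genes of lysosome and autophagy, 33 were higher in rTg4510 mice, with a median of 0.22. The mean level of the list, with each gene centred on the CA1 arrays, lay between 0.02 and 0.43 in rTg4510 arrays and between −0.16 and −0.01 in tTA arrays, without overlap. It was the only one of the lists for which this held, and the DN arrays lay between −0.23 and 0.02. Beside Ctss, which is also a microglial gene, the members higher at an unadjusted p under 0.05 were Hexa (1.24), Ctsh (0.98), Lgmn (0.90), Ctsd (0.67) and Atp6v0a1 (0.54), and 1 member was lower. With Ctss, the higher ones made up 13.3% of the list, where all genes gave 2.2% higher and 1.84% lower. Ctsd, the main aspartic protease of lysosomes, lay between 7.09 and 8.39 against 6.92, 6.64, 7.17, 7.78 and 6.999, a difference of 0.67 (standard error 0.23, limma adjusted p = 0.999). Ctsa, a protective protein of lysosomal enzymes, differed by 1.10 (standard error 0.57) and Ctsb, a cysteine protease, by 0.04 (standard error 0.14). The median stayed between 0.16 and 0.26 whichever mouse was left out. It was 0.10 in CA3 and 0.06 in the dentate gyrus.

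Vessel genes had a median close to that of the lysosomal genes. Of 24 markers of endothelium and vessel wall, 18 were higher, with a median of 0.22, which was 0.15 without rTg4510 mouse 4. In CA3 17 of 24 were higher, with a median of 0.30, and in the dentate gyrus 22 of 24, with a median of 0.26. Rgs5 and Pdgfrb, both of pericytes, differed by 0.70 (standard error 0.30) and 0.55 (standard error 0.23). Pecam1 and Cldn5, junction proteins of endothelium, differed by 0.28 (standard error 0.35) and 0.31 (standard error 0.39), values that were 0.02 for Pecam1 without rTg4510 mouse 2 and 0.05 for Cldn5 without rTg4510 mouse 4. Of 6 oligodendrocyte precursor markers 4 were higher, and their median of 0.23 was −0.10 without rTg4510 mouse 4.

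The glial lists were highest in the same array. The array of rTg4510 mouse 4 had the highest score of the 17 for myelin (1.75), astrocyte (1.42), microglia (1.10), complement (0.83), vessel (0.82) and oligodendrocyte precursor (1.18) markers. It was followed among rTg4510 arrays by mouse 5 for myelin (0.89), astrocyte (0.49) and microglia (0.42). rTg4510 mouse 6 was lowest of its group for astrocyte (−0.21) and myelin (0.02) markers, and mouse 3 for microglia (−0.22). In tTA arrays these scores lay between −0.92 and 0.69 for myelin, −0.41 and 0.20 for astrocyte and −0.20 and 0.00 for microglia markers. The array of rTg4510 mouse 4 was also highest of the 17 for lists beyond glia and vessels. Among them were inhibitory interneuron (0.75), neuropeptide and trophic factor (0.57), GABA receptor (0.43) and interferon and MHC (0.45) genes. For presynaptic and voltage-gated channel genes (−0.33 each) it was the lowest of the 17. How much neighbouring tissue each capture held was not measured, and its part in the glial values was not tested.

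**Figure D4:**
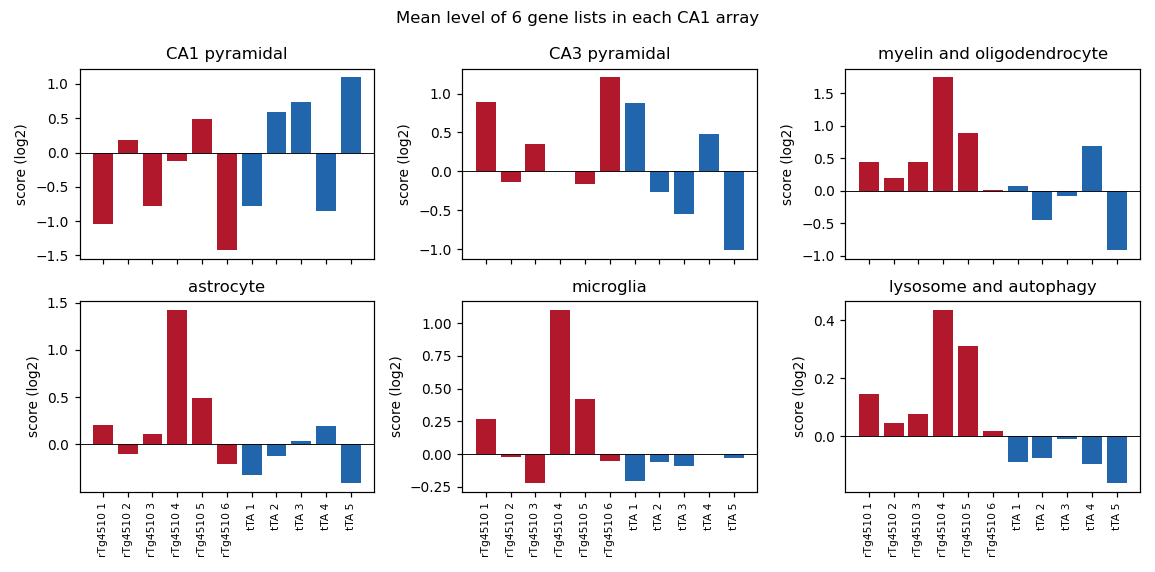
Mean level of 6 gene lists in each CA1 array of rTg4510 (red) and tTA (blue) mice, as the log2 signal minus each gene's mean over the 17 CA1 arrays. The lysosome list is above 0 in all 6 rTg4510 and below 0 in all 5 tTA arrays, while the other lists overlap between the genotypes.

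Markers of the neurons themselves varied widely among the arrays. All 10 CA1 markers measured were lower in rTg4510 mice, with a median of −0.56, and all 10 CA3 markers were higher, with a median of 0.49. Wfs1, an endoplasmic reticulum protein that marks CA1, lay between 5.19 and 9.28 in rTg4510 arrays and was at 2.48, 9.07, 9.88, 7.11 and 10.04 in tTA arrays. The groups overlapped, and the difference was −0.19 (standard error 1.43). Lefty1, a secreted signalling inhibitor, lay between 1.60 and 4.25 against 4.26, 4.82, 4.31, 1.72 and 4.84, a difference of −1.38 (standard error 0.61, limma adjusted p = 0.999). Pou3f1 and Tle1, both transcription regulators, differed by −0.93 (standard error 1.60) and −0.98 (standard error 0.54). Of the CA3 markers, Prkcd, a protein kinase C, lay between 1.17 and 6.53 against 4.62, 1.30, 1.30, 4.92 and 1.42, a difference of 0.98 (standard error 1.17). Bok, Synpr and Iyd differed by 0.24, 0.64 and 0.84. Without the 4 arrays with CA3 markers above CA1 markers, the medians were −0.53 and 0.26, and 2 of 10 CA1 markers were then higher. The CA1 median ranged from −0.92 without tTA mouse 1 to −0.29 without tTA mouse 5, and the CA3 median from 0.10 without tTA mouse 5 to 0.85 without tTA mouse 1. How near to CA3 each capture lay was not measured, so a lower level in CA1 neurons and capture nearer to CA3 cannot be told apart.

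The medians of synaptic and activity genes were near that of all genes. They were −0.01 for 24 presynaptic, −0.07 for 29 postsynaptic, 0.02 for 21 inhibitory interneuron, 0.02 for 9 GABA receptor, −0.03 for 35 voltage-gated channel, 0.08 for 27 immediate early, 0.05 for 23 neuropeptide and trophic factor and −0.04 for 30 neuromodulator receptor genes. With each mouse left out in turn, these medians ranged from −0.20 (postsynaptic, without tTA mouse 4) to 0.17 (neuropeptide, without tTA mouse 3). Dlg4, the scaffold PSD-95, lay between 5.83 and 6.62 against 5.59, 5.86, 6.78, 4.13 and 6.86, a difference of 0.51 (standard error 0.46) that was 0.08 without tTA mouse 4, the lowest array. Arc, an immediate early gene, differed by 0.61 (standard error 0.35), Homer2, a postsynaptic scaffold, by −0.48 (standard error 0.49), Gad2, which makes GABA, by 0.13 (standard error 0.43) and Npy, an interneuron peptide, by −0.57 (standard error 0.55). As each mouse was left out, Homer2 ranged from −0.84 to −0.16, Npy from −0.89 to −0.24 and Arc from 0.37 to 0.74. Without the 4 arrays with CA3 markers above CA1 markers, the medians were 0.20 for GABA receptor genes, of which 8 of 9 were higher, and 0.18 for interneuron genes, against −0.03 over all genes, and Gad2 differed by 0.53 (standard error 0.33). Microtubule and neurofilament genes were higher in 24 of 32 cases, with a median of 0.12, among them Tuba1b (0.22, standard error 0.14) and Dcx (0.63, standard error 0.36), with Map1b at −0.10 (standard error 0.17). Of 28 tau kinases and phosphatases 10 were higher, with a median of −0.03.

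Of 67 ribosomal protein genes 54 were higher, with a median of 0.14, but 33 and a median of 0.00 without the 4 arrays with CA3 markers above CA1 markers. The medians were 0.14 for 35 heat shock, 0.10 for 28 unfolded protein response, 0.12 for 33 proteasome, 0.02 for 73 oxidative phosphorylation, 0.12 for 25 cell death and p53, 0.11 for 20 cholesterol synthesis, 0.10 for 34 amyloid and dementia risk, 0.07 for 24 interferon and MHC, 0.02 for 7 choroid plexus and −0.13 for 10 dentate granule genes. Leaving out 1 mouse turned the sign of 4 of these, to −0.07 for cholesterol synthesis and −0.02 for oxidative phosphorylation without tTA mouse 4, −0.04 for choroid plexus without tTA mouse 2 and 0.14 for dentate granule genes without tTA mouse 5. The lowest of the others were 0.07 for heat shock, 0.07 for proteasome and 0.04 for amyloid and dementia risk genes, each without tTA mouse 4, 0.05 for the unfolded protein response and 0.05 for cell death genes without rTg4510 mouse 1, and 0.01 for interferon and MHC genes without tTA mouse 3. None of the lists had a member with a limma adjusted p under 0.05. A further 2 lists came from CA1 of other rTg4510 mice at a later age, with membership and direction taken from the supplement. Of 1009 probe sets on the higher list, 758 were higher here, with a median of 0.23, and 84 were higher (8.33%) and 4 lower (0.396%) at an unadjusted p under 0.05. Of 725 on the lower list, 279 were higher, with a median of −0.08, and 21 were lower (2.9%) and 6 higher (0.828%), where all probe sets gave 2.08% higher and 1.89% lower. The median of the higher list was 0.13 without rTg4510 mouse 4, the array with the highest glial scores, and 0.31 without the 4 arrays with CA3 markers above CA1 markers.

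**Figure D5:**
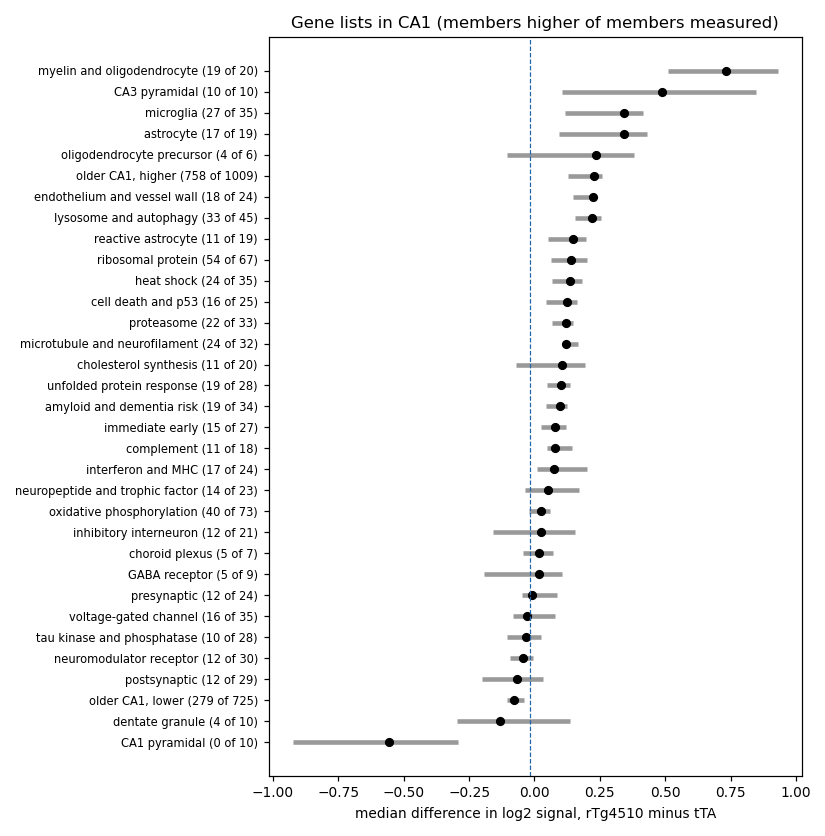
Median difference in log2 signal between rTg4510 and tTA mice for each gene list (points), the range of that median when each of the 11 mice is left out in turn (grey bars), and the median of all genes (dashed line). Myelin lies highest at 0.73 and CA1 markers lowest at −0.56, and the number of members higher of members measured is given beside each name.

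The genotype difference in CA1 was set against that in the other subfields of the same mice. Limma on each mouse's CA1 minus CA3 signal called 0 of 22626 probe sets (0% called), with 504 higher (2.23%) and 436 lower (1.93%) at an unadjusted p under 0.05. On CA1 minus the dentate gyrus it also called 0, with 580 higher (2.56%) and 511 lower (2.26%). The smallest p against CA3 belonged to Clasp2 (1.72, standard error 0.36), Sh3gl3 (1.37, standard error 0.29, an endophilin), Cacna1e (1.59, standard error 0.35, a calcium channel), Cyp51 (−1.13, standard error 0.25, a sterol demethylase) and Dop1b (2.05, standard error 0.47). In CA1 Clasp2 and Sh3gl3 were higher without overlap, by 0.88 and 1.03, and in CA3 they were at −0.85 and −0.34. These values of Clasp2 are from a dimmer probe set, and its brightest differed by 0.13 in CA1. For Cyp51 the dimmer probe set used differed by −0.32 in CA1, and its brightest by −0.26. Against the dentate gyrus they belonged to Mcm9 (1.38, a DNA helicase), Cdkn1a (−1.75, the p21 inhibitor of the cell cycle), Trim37 (−0.86), Pnoc (−2.12, the precursor of nociceptin) and Cdc73 (−1.87, a transcription factor subunit). Cdkn1a differed by −0.05 in CA1 and by 1.70 in the dentate gyrus, and its brightest probe set differed by 0.29 in CA1. Pnoc differed by −1.32 and 0.80, and Trim37 by −0.62 and 0.24. For Cdc73 the dimmer probe set used differed by −0.92 in CA1, its brightest by −0.31, and others by −0.35 and 0.02.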

How the data were processed

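Total RNA from laser-captured CA1 was amplified, labelled with biotin and hybridized to HT-MG-430A arrays. The authors deposited log2 signals made with RMA, whose version and the arrays normalized together are not given in the sources used here. Although anti-log values are named in the methods, the numbers in the table span a log2 range, so no further log was taken. After 90 control probe sets were left out, 22626 of 22716 were tested. The platform table names 1 gene for 18003, several for 287, and 332 others were named from the study's supplement. The number of mice and signal over background limit the precision, and the mice are separate animals.

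Limma 3.58.1 (R 4.3.3) compared the genotypes over all 17 CA1 arrays, as a fit of 3 genotypes, with p adjusted over all 22626 by Benjamini-Hochberg and a threshold of 0.05. The differences of a mouse's CA1 array from its CA3 and dentate gyrus arrays were tested likewise. The brightest probe set in CA1 stood for a gene in 32 gene lists, which together with the members were chosen with earlier results of these data known. Lists were described by counts and medians only. Named were the 15 higher and the 15 lower probe sets of smallest p, the genes of the transgenes and their insertion sites, the first 2 and the 2 of largest absolute t in each list described with members, genes the study names, and the 5 of smallest p in each subfield contrast. Others, among them list members given by name for a p under 0.05 and C3, were chosen after their values were seen. Some list members, which stay in the counts and medians, are not reported here by name. Alternatives were other samples, Fisher's LSD, variance models, filters, scaling and leaving out each mouse. The limma step was tested on simulated data. Python 3.11.15 with matplotlib 3.10.9 made the figures.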

Additional observations from a re-analysis of the deposited data

Results flagged for a closer look

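Single arrays that lay far from the rest of their group by Dixon's test were found in 15 of 254 groups of values tested, where chance gives about 1 in 20. In 4 of the 15 the array was that of rTg4510 mouse 4. For Cd68 it was at 5.01, with the nearest array of the group at 2.75. For Ppie it was at 2.52 and for Gli2 at 2.56. The oligodendrocyte precursor score of this array was 1.18, against 0.04 in the nearest. The array of rTg4510 mouse 1 stood apart for Itgax (2.46) and for the scores of the transgene and insertion site genes (0.27) and of cholesterol synthesis (0.36). That of rTg4510 mouse 6 stood apart for Iyd (5.73).

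Among tTA arrays, that of mouse 4 stood apart for Ctsb (9.28), Lefty1 (1.72), Jmjd6 (2.52), Cacna1e (4.91) and Tle1 (6.52). Mouse 2 stood apart for Mapt (3.74) and mouse 1 for Iyd (3.29).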

How the results depend on the processing

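No probe set was called in the fit of 3 genotypes, nor with any 1 of the 11 mice left out, after a filter on dim probe sets, centring, quantile normalization, 1 probe set per gene or Fisher's LSD on log2 signals. The count was 3 with only rTg4510 and tTA arrays, 1 with all arrays and the mouse as a random block, 3 without the array labelled DN mouse 4, 2 without those labelled DN mice 4 and 5, 1 with Fisher's LSD on linear signals, 1 with an intensity trend and 3 with array weights. It ranged from 0 to 3 as each DN mouse was left out, and from 2 to 4 as each mouse was left out of the fit of 2 genotypes. Sox9 had a limma adjusted p of 0.9997 with the mouse as a random block and of 0.998 with the trend. On linear signals the difference was −12.7 for Bok, 0.134 for Cdkn1a and 0.121 for Ptprn2, and with array weights 0.0098 for Cd14, −0.018 for Ctsb and −0.171 for Csf1r, each of opposite sign. Without the 4 arrays with CA3 markers above CA1 markers, Map1b (0.0345), Homer2 (0.255), Ptprn2 (0.031) and Camk2a (0.0248) turned sign. As each mouse was left out, the ranges of named genes that crossed 0 were −0.258 to 0.907 for Bok, −0.281 to 0.0678 for Cdkn1a, −0.209 to 0.106 for Ptprn2, −0.164 to 0.0932 for Cd14, −0.028 to 0.115 for Ctsb, −0.301 to 0.536 for Csf1r, −1.4975 to 0.3915 for Wfs1, −0.093 to 0.476 for Gad2, −0.145 to 0.533 for Cd68, −0.15 to 0.192 for Itgb2 and −0.0584 to 0.0324 for Camk2a. They were −0.0042 to 0.125 for the interquartile range of the arrays and −0.0025 to 0.0108 for their correlation. The medians of 13 of 34 gene lists also crossed 0, from −0.298 to 0.135 for dentate granule, −0.103 to 0.381 for oligodendrocyte precursor, −0.0692 to 0.193 for cholesterol synthesis, −0.193 to 0.107 for GABA receptor, −0.159 to 0.155 for interneuron and −0.201 to 0.0308 for postsynaptic genes, with the other 7 between −0.107 and 0.169. Ranges were −1.78 to −0.243 for Pou3f1, 0.415 to 1.53 for Prkcd, 0.316 to 1.11 for Iyd, −0.652 to −0.317 for Steap4, −1.75 to −0.802 for Pnoc and 0.39 to 0.848 for Cacna1e. The cause was not tested. The contrasts with CA3 and the dentate gyrus called 0 probe sets under every alternative run. The number of mice and dim signals limit all of these values. No paired analysis was possible because the genotypes are different mice and the titles pair none of them.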
